A study of Mus musculus with 8 samples.

Results

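The nuclear genes of oxidative phosphorylation were followed in CD8+ T cells, the cytotoxic lineage of T lymphocytes, before and after 5 days of culture. Members were all gene symbols in the count tables that start with Nduf, Uqcr or Atp5, that match Cox followed by a digit from 4 to 8, or that are *Sdha*, *Sdhb*, *Sdhc* or *Sdhd*. Symbols marked as pseudogenes with -ps were left out. This gave 92 of 48321 symbols, and the rule itself uses symbols and no measured value. All 92 had a read in at least 1 library, and 87 passed the filter on low counts and were tested. The 5 members below the filter were *Cox7b2*, *Cox8b*, *Cox8c*, *Ndufa4l2* and *Ndufaf6*. RNA came from sorted splenic CD8+ T cells of C57BL/6 mice in 4 groups of 2 libraries, namely WT at day 0, KO at day 0, WT at day 5 and KO at day 5. The series describes the cells as cultured in vitro and the mice as *Satb1* F/F with *E8I-cre*, a driver active in mature cells of the CD8 lineage, so both alleles of *Satb1* can be lost after the CD8 fate is set. Labels of single libraries give no more than WT or KO, and whether the WT mice carried the floxed alleles, the age of the mice, pooling of animals and the stimulus in culture are not given in the sources used here. Nothing says that the 2 libraries of a group came from separate animals or cultures, so p-values measure the spread between these libraries, which may be technical.

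Oxidative phosphorylation takes place in the inner mitochondrial membrane. Complex I (NADH dehydrogenase) and complex II (succinate dehydrogenase) pass electrons to ubiquinone, complex III (cytochrome bc1) passes them to cytochrome c, and complex IV (cytochrome c oxidase) passes them to oxygen. Proton pumping by complexes I, III and IV drives complex V, the ATP synthase. Most subunits are encoded in the nucleus, while a small set of core subunits of complexes I, III, IV and V is encoded in the mitochondrial genome, and complex II is entirely nuclear. Resting naive T cells depend largely on oxidative phosphorylation, and activated T cells increase glycolysis while they also enlarge their mitochondrial mass.

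The libraries held between 4170126 and 11117971 reads assigned to genes, the highest in KO day 0 replicate 1. Levels are CPM, the reads of a gene as a share of its library, scaled by trimmed mean of M values (TMM), so they are shares of the counted RNA, and fewer cells of a type cannot be told apart from less RNA per cell. *Cd8a* ranged from 734 to 1456 CPM and *Cd8b1* from 1199 to 4057 CPM over all libraries, while *Cd4* was at most 0.964 CPM. The sum of *Cd8a* and *Cd8b1* was lower after culture, with 4743 to 5512 CPM at day 0 and 1933 to 2584 CPM at day 5. The 3 B cell markers summed to at most 2.49 CPM and the 4 myeloid markers to between 4.06 and 19.0 CPM, the latter highest at day 0. *Satb1*, the targeted gene, was 97.8 and 91.6 CPM in WT and 144 and 125 CPM in KO at day 0, which runs against the label (log2 fold change 0.51, adjusted p = 0.125). At day 5 it was 96.5 and 116 CPM in WT and 56.5 and 62.3 CPM in KO (log2 fold change −0.84, adjusted p = 0.0162). Directions are therefore given for libraries labelled KO.

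Promoter windows of 4 genes are shown because 3 of these were the members called lower in KO before culture and 1 was the complex II gene with the largest rise in WT culture. The windows run from 250 bases before to 50 bases after the RefSeq start site (GRCm38.p6). They are read 5′ to 3′ along the gene, with searched motifs in capitals. The motifs were the NRF1 core GCGCATGC, the ETS core CCGGAAG, the YY1 motif AAGATGGCG and the CRE TGACGTCA, on both strands. The NRF1 core can overlap itself on the opposite strand within one palindrome.
*Uqcrc1*, chr9:108936398-108936697, + strand: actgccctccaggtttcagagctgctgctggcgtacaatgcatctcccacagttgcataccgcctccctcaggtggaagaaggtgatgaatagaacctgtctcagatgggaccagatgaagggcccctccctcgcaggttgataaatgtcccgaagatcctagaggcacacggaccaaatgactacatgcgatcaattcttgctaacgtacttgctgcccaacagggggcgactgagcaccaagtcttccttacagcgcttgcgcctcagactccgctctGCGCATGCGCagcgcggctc
*Cox6a1*, chr5:115348909-115349208, − strand: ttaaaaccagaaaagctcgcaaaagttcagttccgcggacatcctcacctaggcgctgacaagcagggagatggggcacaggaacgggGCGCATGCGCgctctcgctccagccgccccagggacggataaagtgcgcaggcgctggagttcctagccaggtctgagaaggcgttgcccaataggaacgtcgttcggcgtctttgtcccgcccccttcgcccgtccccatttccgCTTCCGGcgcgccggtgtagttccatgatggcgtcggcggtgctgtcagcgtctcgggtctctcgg
*Ndufa10*, chr1:92473709-92474008, − strand: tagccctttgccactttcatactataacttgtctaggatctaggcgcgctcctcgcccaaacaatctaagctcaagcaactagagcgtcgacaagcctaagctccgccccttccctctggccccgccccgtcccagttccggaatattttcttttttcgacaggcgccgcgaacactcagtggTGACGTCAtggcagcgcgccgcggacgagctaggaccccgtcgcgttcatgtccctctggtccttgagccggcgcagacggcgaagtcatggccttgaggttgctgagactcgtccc
*Sdhd*, chr9:50603800-50604099, − strand: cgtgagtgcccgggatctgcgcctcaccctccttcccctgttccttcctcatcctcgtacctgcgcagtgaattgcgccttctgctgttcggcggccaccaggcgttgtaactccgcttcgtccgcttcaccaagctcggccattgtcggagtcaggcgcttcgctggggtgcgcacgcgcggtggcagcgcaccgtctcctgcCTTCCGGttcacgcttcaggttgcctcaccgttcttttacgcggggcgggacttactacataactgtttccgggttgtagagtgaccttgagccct

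The windows of *Uqcrc1* and *Cox6a1* both held the overlapping pair of NRF1 cores, *Cox6a1* and *Sdhd* each held an ETS core, and *Ndufa10* held a CRE. Of the 92 members 73 had a window in the table. The NRF1 core was in the windows of 12 of these 73 genes (16.4%), against 3.05% of the 27025 genes with any window. An ETS core was present for 17 (23.3%, against 9.93%), YY1 for 7 (9.59%, against 1.64%) and CRE for 4 (5.48%, against 2.03%). At least 1 of the 4 motifs was found for 33 members (45.2%), against 15.1% of all genes. Among members that rose in WT culture 17 of 43 (39.5%) held any motif, and among tested members that did not rise 16 of 28 (57.1%) did. The members' windows were also richer in CpG, with a median observed over expected ratio of 0.825 against 0.384 over all windows. These matches describe letters in a window and are not measured binding.

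Levels were compared between members as CPM per kilobase of the principal transcript. In WT at day 0 *Uqcrh*, the hinge subunit of complex III, was highest at 691 ± 47.2 CPM per kilobase (mean ± SD, n = 2), followed by *Cox4i1* at 657 ± 31.7 and *Atp5o* at 465 ± 16.1. *Uqcrh* and *Cox4i1* lay within their joint spread. Several subunits were counted far lower. *Cox5a* stood at 5.67 ± 2.57 CPM per kilobase, *Cox5b* at 8.53 ± 0.226, *Uqcrfs1*, the Rieske iron-sulfur protein, at 8.66 ± 0.748 and *Ndufab1*, the mitochondrial acyl carrier protein, at 1.39 ± 0.148. Reads with more than 1 alignment were set aside by the counting. The share of 50-base stretches of the principal transcript that also occur in transcripts of other genes was 32.1% for *Cox5a*, 25.9% for *Cox5b*, 12.3% for *Ndufab1* and 0% for *Uqcrfs1*. It exceeded 25% for 15 members, was highest for *Atp5g2* (87.4%) and *Atp5l* (84.8%), and makes the levels of these genes uncertain. Also among these 15 were *Atp5o* (50.3%), *Uqcrb* (43.4%) and *Ndufs3* (39.7%).

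Culture raised most nuclear genes of oxidative phosphorylation in both genotypes. Their summed level was 14273 and 13516 CPM in WT at day 0 and 21268 and 18642 CPM in WT at day 5. In the libraries labelled KO it went from 12416 and 12950 CPM to 18267 and 17964 CPM, and the days did not overlap in either genotype. Days without overlap were common over the 12597 tested genes. In WT 4493 of these lay higher and 4785 lower at day 5, and in KO 4814 and 5001. In WT 54 of 87 tested members rose and 3 fell (edgeR quasi-likelihood test, adjusted p under 0.05). Over all 12597 tested genes 48.3% were called, with 24.7% higher and 23.6% lower. The median log2 fold change was 0.62 over the members and −0.04 over all genes. In KO 55 rose and 4 fell, where 50.2% of all genes were called, 26.2% higher and 24.0% lower, and the medians were 0.55 and −0.05. No member passed the test of the difference in culture response between genotypes, so a call in 1 genotype alone is not a shown difference. Of the 57 calls in WT 50 held in at least 15 alternatives and 12 were lost when 1 library was left out, and of the 59 calls in KO 46 held in at least 15 and 20 were lost without 1 library. The calls counted above include 4 cytochrome c oxidase isoforms that reached the filter through their day 5 libraries alone and so had to differ. Of the 83 members that reached it at day 0, 50 rose and 3 fell in WT and 51 rose and 4 fell in KO. Scaling by library totals alone lowered the all-gene medians to −0.17 in WT and −0.23 in KO and the members' medians to 0.48 and 0.37. After a correction for GC and exon length the members' medians were 0.45 and 0.43.

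**Figure D1:**
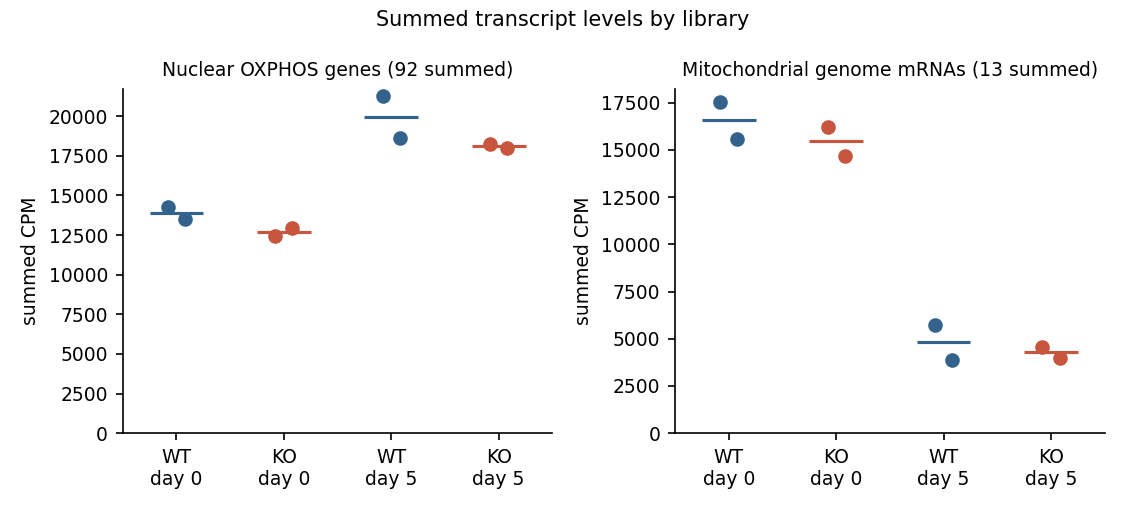
Summed CPM of the 92 nuclear members (left) and of the 13 mitochondrial genome mRNAs (right) in each library (points), with group means (lines); both axes start at 0. Nuclear members sum to 12416 to 14273 CPM at day 0 and 17964 to 21268 CPM at day 5, while mitochondrial genome mRNAs go from 14702 to 17540 CPM down to 3877 to 5731 CPM. Of the mitochondrial sum *mt-Cytb* alone makes 9379 to 11022 CPM at day 0.

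**Figure D2:**
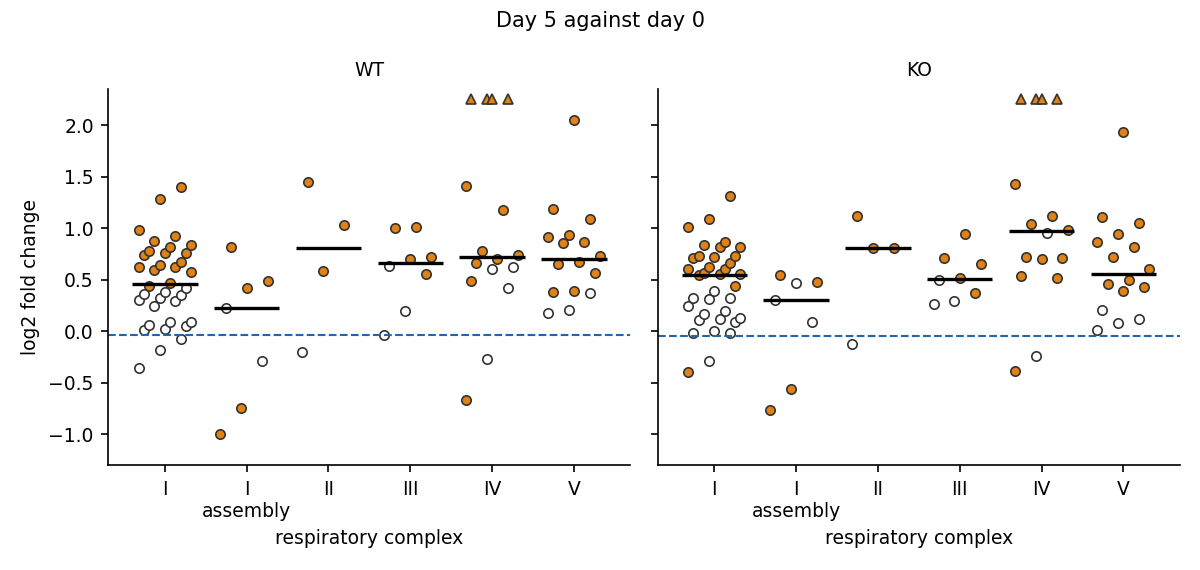
Log2 fold change of each tested member at day 5 against day 0 in WT (left) and in libraries labelled KO (right), by complex; filled symbols pass an adjusted p of 0.05, black lines are medians of each complex and the dashed line is the median of all tested genes. Triangles at the upper edge mark the 4 complex IV isoforms beyond the axis; most members of every complex lie above the dashed line, and in the assembly group 2 members in each genotype are called lower.

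Complex I was the largest group, with 36 tested subunits outside its assembly factors. In WT 19 rose and none fell, and in KO 20 rose and 1 fell. That is 52.8% and 58.3% called, where 48.3% and 50.2% of all tested genes were called. Of the 7 core redox subunits, which bind the flavin and the iron-sulfur clusters or lie at the quinone site, 1 rose in WT and 3 in KO. Those are 14.3% and 42.9%, where 24.7% and 26.2% of all tested genes rose. *Ndufv2*, which holds an iron-sulfur cluster, rose in WT from 293 and 279 CPM to 482 and 409 CPM (log2 fold change 0.64 ± 0.126 SE, adjusted p = 0.00113). In KO it went from 237 and 271 CPM to 416 and 419 CPM (0.72 ± 0.125, adjusted p = 0.000424). The other core subunits lay nearer to their day 0 levels in WT. *Ndufs1*, which carries several iron-sulfur clusters, stood at 255 and 225 CPM at day 0 and 267 and 219 CPM at day 5 in WT (log2 fold change 0.02). *Ndufs7*, *Ndufs8* and *Ndufv1* had log2 fold changes between 0.06 and 0.33 in both genotypes and none passed the test. *Ndufs3*, a core subunit of the matrix arm, passed in KO and not in WT (0.60, adjusted p = 0.0456, and −0.08, adjusted p = 0.807), and its difference between genotypes did not pass (adjusted p = 0.425). The call of *Ndufs3* in KO held in 9 of 19 alternatives. It was lost without WT day 0 replicate 1 (0.60) or replicate 2 (0.60), KO day 0 replicate 2 (0.30) or KO day 5 replicate 2 (0.42), and without KO day 0 replicate 1 the value was 1.03.

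The accessory subunits, which surround the core and have structural or assembly roles, rose in 18 of 29 cases in WT and 17 of 29 in KO, with median log2 fold changes of 0.60 and 0.55. Of these subunits 62.1% were called in each genotype, where 48.3% and 50.2% of all tested genes were called. For the 7 core redox subunits the medians were 0.06 and 0.33. The difference between the core and accessory groups was not tested. *Ndufv3*, an accessory subunit next to the flavin module, rose from 179 and 156 CPM to 475 and 410 CPM in WT (1.40 ± 0.128, adjusted p = 2.05e-06) and from 162 and 169 CPM to 421 and 399 CPM in KO (1.31 ± 0.127, adjusted p = 3.2e-06). *Ndufc2*, a membrane arm subunit, rose from 90.9 and 67.8 CPM to 198 and 189 CPM in WT (1.28, adjusted p = 1.81e-05) and from 83.8 and 81.5 CPM to 154 and 148 CPM in KO (0.87 ± 0.147, adjusted p = 0.000347). Neither gene overlapped between days in either genotype, which was common over all tested genes. *Ndufb8*, another membrane arm subunit, rose from 187 and 186 CPM to 345 and 309 CPM in WT (0.81, adjusted p = 0.00135) and from 171 and 119 CPM to 287 and 335 CPM in KO (1.09 ± 0.164, adjusted p = 0.000137). *Ndufa1*, a small membrane subunit, was the 1 complex I subunit that fell, and this was in KO, from 80.5 and 85.7 CPM to 64.9 and 61.5 CPM (−0.39 ± 0.142, adjusted p = 0.0361). This call held in 11 of 19 alternatives and was lost without any 1 of the KO libraries (−0.34 to −0.43). In WT its values were 78.7 and 67.8 CPM at day 0 and 97.0 and 91.6 CPM at day 5 (0.36, adjusted p = 0.0525).

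Assembly factors of complex I take no part in the finished enzyme. Of the 7 tested, 3 rose and 2 fell in WT, and 2 rose and 2 fell in KO. That is 71.4% and 57.1% called, where 48.3% and 50.2% of all tested genes were called. The rises were those of *Ndufaf2* in WT and of *Ndufaf3* and *Ndufaf7* in both genotypes, and they rest on single libraries. All 3 WT calls were lost without WT day 0 replicate 1 (log2 fold changes 0.77, 0.45 and 0.42) or replicate 2 (0.87, 0.41 and 0.57). Both KO calls were lost without KO day 0 replicate 1 (0.47 and 0.45) or KO day 5 replicate 2 (0.50 and 0.46). Other single libraries also ended some of these calls, among them those of WT day 5. In WT *Ndufaf7* was 0.25 without WT day 5 replicate 1. Without WT day 5 replicate 2 *Ndufaf2* was 0.59 and *Ndufaf3* 0.38. *Ndufaf4*, which acts on early intermediates, fell from 64.4 CPM in both WT libraries to 43.6 and 33.0 CPM (−0.74 ± 0.219, adjusted p = 0.0138) and from 36.6 and 44.0 CPM to 28.9 and 18.4 CPM in KO (−0.76 ± 0.225, adjusted p = 0.0133). *Atp5sl*, named for its likeness to an ATP synthase factor and described as an assembly factor of the complex I membrane arm, fell from 42.8 and 57.4 CPM to 27.9 and 21.9 CPM in WT (−0.996 ± 0.199, adjusted p = 0.00124). In KO it fell from 51.0 and 56.3 CPM to 36.2 and 36.4 CPM (−0.56 ± 0.189, adjusted p = 0.0263). Both fell within each genotype with no overlap between days, which was common over all tested genes. The call of *Atp5sl* in KO was lost without KO day 0 replicate 2 (−0.49) or KO day 5 replicate 1 (−0.55) or replicate 2 (−0.55). That of *Ndufaf4* was lost in WT without WT day 0 replicate 1 (−0.74) or replicate 2 (−0.74) or WT day 5 replicate 2 (−0.53), and in KO without KO day 0 replicate 2 (−0.63) or KO day 5 replicate 2 (−0.46). Of 38 tested assembly factors of complexes I to V whose symbols lie outside the rule, 6 rose and 5 fell in WT and 2 rose and 6 fell in KO, with median log2 fold changes of −0.05 and −0.07. These are 28.9% and 21.1% called, below the 48.3% and 50.2% of all tested genes. *Uqcc2*, an assembly factor for cytochrome b of complex III, rose in both (1.02 in WT and 0.77 in KO). *Lyrm7*, which helps to insert the Rieske protein, fell in both (−1.58 and −1.21).

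The 4 subunits of complex II split. *Sdha*, the flavoprotein that oxidises succinate, stood at day 0 at 991 and 920 CPM in WT and 944 and 980 CPM in KO. At day 5 it stood at 868 and 794 CPM in WT and 882 and 881 CPM in KO. It was lower without overlap in WT and KO, as were 4785 and 5001 of 12597 tested genes. It did not pass the test (−0.20, adjusted p = 0.141, and −0.13, adjusted p = 0.347). *Sdhb*, the iron-sulfur subunit that receives its electrons, rose from 490 and 444 CPM to 1074 and 836 CPM in WT (1.03 ± 0.131, adjusted p = 3.55e-05) and from 454 and 461 CPM to 788 and 809 CPM in KO (0.80 ± 0.130, adjusted p = 0.000247). *Sdhd*, one of the membrane anchors, rose from 89.8 and 81.2 CPM to 214 and 253 CPM in WT (1.45 ± 0.135, adjusted p = 2.58e-06). In KO it went from 85.6 and 86.2 CPM to 192 and 181 CPM (1.12 ± 0.133, adjusted p = 1.97e-05). The other anchor, *Sdhc*, rose by 0.58 ± 0.123 in WT and 0.81 ± 0.121 in KO on the log2 scale. In the tricarboxylic acid cycle, which complex II shares, 8 of 17 listed enzymes rose in each genotype, with 3 lower in WT and 1 in KO. Over all tested genes 24.7% were higher and 23.6% lower in WT, and 26.2% and 24.0% in KO. *Fh1*, the fumarase that acts after succinate dehydrogenase, rose in both (1.17 and 0.95), and *Ogdh*, upstream of succinate, fell in both (−1.21 and −0.76).

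In complex III 5 of 8 subunits rose in each genotype and none fell. This is 62.5%, where 24.7% of all tested genes rose in WT and 26.2% in KO. The KO calls of *Uqcr10* and *Uqcr11*, small subunits, held in 11 and 13 of 19 alternatives. Both were lost without KO day 0 replicate 1 (0.33 and 0.46) or KO day 5 replicate 1 (0.30 and 0.50), and that of *Uqcr10* also without KO day 5 replicate 2 (0.46). *Uqcrc2*, a core protein on the matrix side, rose from 369 and 344 CPM to 618 and 559 CPM in WT (0.72 ± 0.117) and from 343 and 312 CPM to 529 and 503 CPM in KO (0.66 ± 0.116). Its partner *Uqcrc1* did not move with it in WT, where it was 155 and 174 CPM at day 0 and 141 and 181 CPM at day 5 (−0.03, adjusted p = 0.882). In KO *Uqcrc1* rose from 77.5 and 73.0 CPM to 131 and 158 CPM (0.94 ± 0.157, adjusted p = 0.000315). *Uqcrb*, which lies at the quinone site, rose from 83.4 and 73.9 CPM to 163 and 154 CPM in WT (1.01 ± 0.136) and by 0.71 ± 0.134 on the log2 scale in KO. The difference between these core proteins was not tested, and the difference of *Uqcrc1* between genotypes did not pass (adjusted p = 0.122). *Uqcrq*, a small subunit near the quinone site, passed in WT (0.55, adjusted p = 0.0352) and not in KO (0.27, adjusted p = 0.276). Its WT libraries were 171 and 163 CPM at day 0 and 303 and 187 CPM at day 5, and the call held in 12 of 19 alternatives. It was lost without WT day 0 replicate 1 (0.60) or replicate 2 (0.53) or WT day 5 replicate 1 (0.18), and without WT day 5 replicate 2 the value was 0.89. *Uqcrfs1* was 12.5 and 11.1 CPM at day 0 and 19.6 and 17.1 CPM at day 5 in WT (0.64, adjusted p = 0.0527).

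Among the 11 ubiquitous subunits counted here with complex IV, 7 rose in WT and 9 in KO. Those are 63.6% and 81.8%, where 24.7% and 26.2% of all tested genes rose. *Cox4i1*, which regulates the enzyme by binding adenine nucleotides, rose from 520 and 485 CPM to 755 and 659 CPM in WT (0.49 ± 0.116) and from 476 and 436 CPM to 750 and 749 CPM in KO (0.72 ± 0.116). *Cox7c*, a small membrane subunit, rose from 38.6 and 32.3 CPM to 100 and 88.0 CPM in WT (1.41 ± 0.169, adjusted p = 2.26e-05) and from 35.9 and 42.9 CPM to 64.7 and 64.0 CPM in KO (0.71 ± 0.165, adjusted p = 0.00313). In *Cox7c* 52.9% of 50-base stretches also occur elsewhere. *Cox6b1* (0.74 in WT and 0.70 in KO), *Cox6c* (0.78 and 0.52), *Cox7b* (0.70 and 0.54) and *Cox8a* (0.66 and 1.04), further structural subunits of the oxidase, rose in both genotypes. The WT call of *Cox8a* was lost without WT day 0 replicate 1 (0.79) or replicate 2 (0.56) or WT day 5 replicate 2 (0.24), and without KO day 0 replicate 1 the KO call of *Cox6c* was lost (0.43). *Cox6a1* rose in KO from 24.7 and 22.0 CPM to 57.8 and 69.1 CPM (1.43 ± 0.247, adjusted p = 0.000402) and did not pass in WT (0.60, adjusted p = 0.0544). *Cox5a* passed in KO alone (1.12, adjusted p = 0.0442) at levels of at most 5.30 CPM, and *Cox5b* in neither (0.63 and 0.96). The *Cox5a* call held in 8 of 18 alternatives and was lost without any 1 of the KO libraries or of the WT libraries of day 5 (0.96 to 1.40). *Ndufa4*, once assigned to complex I and since placed in complex IV, was 216 and 207 CPM at day 0 and 184 and 167 CPM at day 5 in WT (−0.27, adjusted p = 0.0883), and in KO it did not pass either (−0.24).

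*Cox7a2l*, which joins complexes III and IV in supercomplexes, fell where its paralogue *Cox7a2*, a constituent subunit of the oxidase, rose. It went from 336 and 358 CPM to 209 and 227 CPM in WT (−0.67 ± 0.119, adjusted p = 0.00054) and from 295 and 316 CPM to 243 and 226 CPM in KO (−0.38 ± 0.118, adjusted p = 0.0168). *Cox7a2* went from 134 and 122 CPM to 304 and 274 CPM in WT (1.18 ± 0.123) and from 118 CPM in both KO libraries to 235 and 233 CPM (0.99 ± 0.121). For both genes the days did not overlap in either genotype, which was common over all tested genes. The KO call of *Cox7a2l* was lost without KO day 0 replicate 2 (−0.34) or KO day 5 replicate 1 (−0.42) or replicate 2 (−0.32).

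A set of 4 isoforms that are normally restricted to other tissues were counted at a low level at day 5. Since they reached the filter through their day 5 libraries alone, a day 5 excess was fixed by the filter, and their values are a description with no test. *Cox6a2* and *Cox7a1* are the heart and skeletal muscle forms, *Cox6b2* a testis form and *Cox4i2* a form of lung and oxygen-sensing cells. *Cox4i2* had no read in either WT library at day 0 and 4.41 and 4.34 CPM at day 5, which is at least 14.6-fold higher against a floor of 3 reads over the group. In KO it had 2 reads over both day 0 libraries and 30 at day 5 (ratio 23.9, exact 95% counting interval 6.08 to 207). *Cox7a1* had 4 reads in WT at day 0 and 65 at day 5, or 8.47 and 4.10 CPM (ratio 16.6, interval 6.17 to 62.6), and in KO 1 and 72 reads (ratio 115, interval 20 to 4601). Reads remained few for the other isoforms as well. *Cox6a2* had 2 and 44 reads in WT (ratio 22.4, interval 5.85 to 191) and 1 and 32 in KO. *Cox6b2* had 6 and 60 reads in WT (ratio 10.2, interval 4.42 to 28.9) and 26 and 84 in KO (ratio 5.16, interval 3.29 to 8.34). These intervals cover counting error only. Per kilobase the ubiquitous partners stayed far above them, as *Cox4i1* averaged 924 ± 88.5 and *Cox4i2* 5.97 ± 0.0693 CPM per kilobase in WT at day 5 (SD, n = 2), and *Cox7a2* 439 ± 32.3 and *Cox7a1* 16.0 ± 7.86. *Cox7b2*, *Cox8b*, *Cox8c* and *Ndufa4l2* had at most 4 reads in any library.

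**Figure D3:**
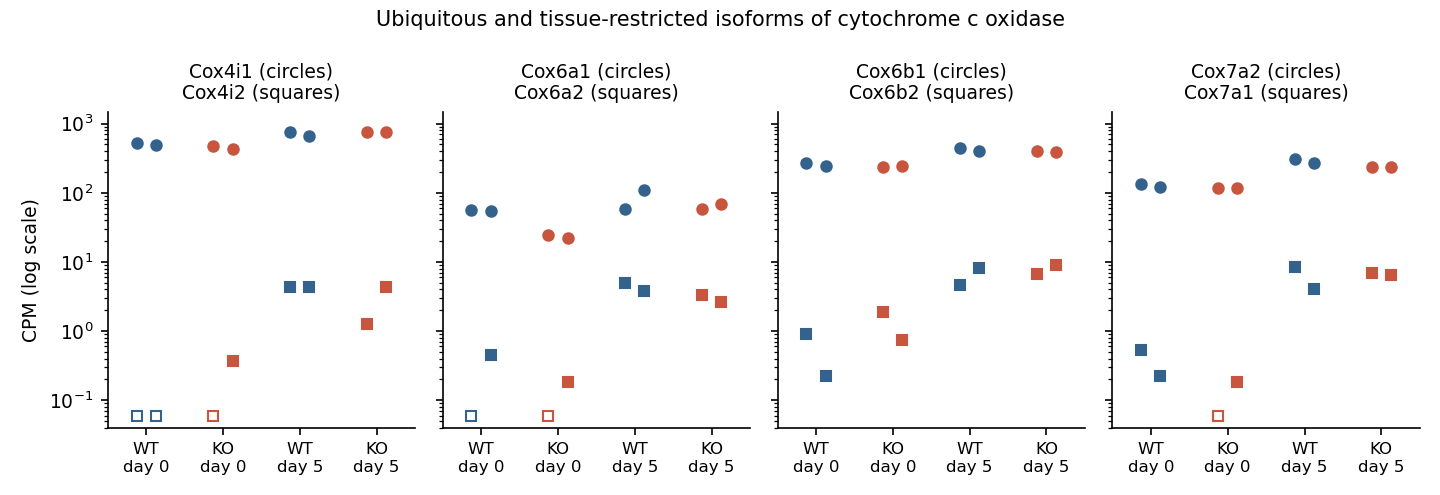
CPM on a log axis of ubiquitous cytochrome c oxidase isoforms (circles) and their tissue-restricted paralogues (squares) in each library, WT in blue and libraries labelled KO in red; open squares at the lower edge stand for libraries with no read. The restricted forms lie between 0 and 1.89 CPM at day 0 and between 1.29 and 8.90 CPM at day 5.

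Complex V had 13 of 16 members higher in WT and 12 of 16 in KO, with none lower. Those are 81.2% and 75%, where 24.7% and 26.2% of all tested genes rose. Of the catalytic F1 head, *Atp5c1*, the gamma subunit that forms the rotating shaft, rose from 497 and 431 CPM to 862 and 822 CPM in WT (0.86 ± 0.115, adjusted p = 5.26e-05) and from 431 and 458 CPM to 811 and 805 CPM in KO (0.86 ± 0.114, adjusted p = 4.83e-05). *Atp5b*, the catalytic beta subunit, rose by 0.65 ± 0.139 in WT and 0.72 ± 0.140 in KO on the log2 scale. *Atp5a1*, the alpha subunit that alternates with beta in the head, was 639 and 699 CPM at day 0 and 846 and 669 CPM at day 5 in WT (0.18, adjusted p = 0.263), and passed in KO (0.39, adjusted p = 0.0204), a call lost without any 1 of the KO libraries (0.40 to 0.41). *Atp5d* and *Atp5e*, the delta and epsilon subunits of the central stalk, and *Atp5o*, of the peripheral stalk, rose in both genotypes by between 0.43 and 1.11 on the log2 scale. The *Atp5d* call was lost in WT without WT day 0 replicate 2 (0.82) or WT day 5 replicate 2 (0.59) and in KO without KO day 0 replicate 1 (0.77) or KO day 5 replicate 2 (0.92), and the KO call of *Atp5e* without KO day 0 replicate 1 (0.42) or KO day 5 replicate 1 (0.41) or replicate 2 (0.48). *Atp5k*, a membrane subunit at the dimer interface, rose in WT from 36.0 and 37.3 CPM to 82.5 and 73.3 CPM (1.09 ± 0.225, adjusted p = 0.00158). In KO it was 28.1 and 48.3 CPM at day 0 and 46.0 and 41.1 CPM at day 5 (0.21, adjusted p = 0.454). *Atp5s*, a coupling factor, changed from 3.58 and 2.94 CPM to 10.2 and 17.4 CPM in WT (2.05 ± 0.510, adjusted p = 0.00527) and from 1.54 and 5.87 CPM to 12.9 and 12.7 CPM in KO (1.93 ± 0.486). Its WT value was the largest among called members that reached 10 CPM. The KO value was 1.13 without KO day 0 replicate 1 and 3.03 without KO day 0 replicate 2, and the call held in all 19 alternatives.

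The c-ring subunit is encoded by *Atp5g1*, *Atp5g2* and *Atp5g3*, which yield the same mature protein. Per kilobase, *Atp5g3* supplied 89.6% ± 0.118 of their counted transcript in WT at day 0 (SD, n = 2) and 85.9% ± 1.87 at day 5. *Atp5g2* supplied 6.06% ± 0.401 and 10.4% ± 2.40, and *Atp5g1* 4.38% ± 0.519 and 3.64% ± 0.526. On the CPM scale *Atp5g2* rose by 1.19 ± 0.204 in WT and 0.95 ± 0.195 in KO and *Atp5g3* by 0.39 ± 0.151 and 0.46 ± 0.151 in log2 units, while *Atp5g1* did not pass (0.21 and 0.08). The WT call of *Atp5g3* (adjusted p = 0.0493) held in 7 of 19 alternatives. It was lost without 6 of the 8 libraries in turn and held without KO day 0 replicate 2 or WT day 5 replicate 2, with 0.19 without WT day 5 replicate 1 as the lowest value of these. Its KO call was lost without KO day 0 replicate 1 (0.43) or KO day 5 replicate 1 (0.35). Most of the *Atp5g2* transcript shares 50-base stretches with other genes, as given above, so its share is uncertain.

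Transcripts of the mitochondrial genome, which code for the partner subunits, went the opposite way. Of 11 tested, 9 fell and none rose in each genotype, with median log2 fold changes of −1.41 in WT and −1.59 in KO. Their sum was 17540 and 15594 CPM in WT at day 0 and 5731 and 3877 CPM at day 5. *mt-Cytb*, the mitochondrial subunit of complex III, fell by 2.40 in WT and 2.72 in KO on the log2 scale, and *mt-Co1*, the catalytic subunit of complex IV, fell by 0.94 and 0.55. Of the WT sum *mt-Cytb* alone made 11022 and 9758 CPM at day 0 and 2618 and 1325 CPM at day 5. In WT at day 0 *mt-Co2*, *mt-Co3*, *mt-Atp6* and *mt-Atp8* had 1.13 to 11.1 CPM. *mt-Nd3* and *mt-Nd4l* had at most 0.715 CPM there, so part of the set was barely counted. Every mitochondrial mRNA tested had a negative fold change in both genotypes. Reads with more than 1 alignment, such as those shared with nuclear copies of these genes, were set aside. Of 18 tested electron carriers and ubiquinone genes, 6 rose and 1 fell in WT and 7 rose and 1 fell in KO, where all tested genes had 24.7% higher and 23.6% lower in WT and 26.2% and 24.0% in KO. *Cycs*, which encodes cytochrome c, rose in WT (0.75 ± 0.169) and did not pass in KO (0.25, adjusted p = 0.232), and the difference between genotypes did not pass (−0.50, adjusted p = 0.424). Among 16 tested genes of a list headed nuclear regulators, 1 rose in each genotype while 4 fell in WT, a share near that of all tested genes, and 6 in KO. The one that rose was *Atpif1*, which encodes the inhibitor of ATP synthase hydrolysis and acts on the enzyme, not on gene expression, from 74.2 and 79.4 CPM to 350 and 356 CPM in WT (2.20 ± 0.121, adjusted p = 1.84e-08) and by 2.29 ± 0.119 in log2 units in KO. *Ppargc1b*, a coactivator of mitochondrial biogenesis, fell in both (−1.73 and −2.17). *Polrmt*, the mitochondrial RNA polymerase, fell in both (−1.07 and −1.22). Both genes were counted low. Mean levels of *Ppargc1b* went from 14.1 to 4.19 CPM in WT and from 13.0 to 2.91 CPM in KO. Those of *Polrmt* went from 7.25 to 3.35 CPM and from 8.59 to 3.64 CPM. *Nrf1*, the transcription factor whose core motif was searched above, did not pass in WT or KO (−0.00 and 0.36, adjusted p = 0.982 and 0.0507).

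At day 0 the comparison of KO with WT asked whether the labelled genotype went with these genes before culture. Here 3 of 87 members were lower in the libraries labelled KO and none was higher, against 1.80% of all tested genes called, 0.913% higher and 0.889% lower. *Uqcrc1* was 155 and 174 CPM in WT and 77.5 and 73.0 CPM in KO (log2 fold change −1.12 ± 0.158 SE, adjusted p = 0.00303). *Cox6a1*, the ubiquitous form of an oxidase subunit at the dimer contact, was 56.0 and 54.5 CPM in WT and 24.7 and 22.0 CPM in KO (−1.23 ± 0.249, adjusted p = 0.0266). *Ndufa10*, an accessory subunit of the complex I membrane arm, was 112 and 110 CPM in WT and 46.5 and 70.8 CPM in KO (−0.94 ± 0.208, adjusted p = 0.0423). The WT and KO libraries of these genes did not overlap. *Cox8a* was 50.4 and 43.2 CPM in WT and 20.8 and 26.8 CPM in KO and missed the threshold (−0.99 ± 0.248, adjusted p = 0.0716). In the same complexes *Uqcrc2* (−0.12) and *Cox6b1* (−0.08) had small differences, while *Cox5b* (−0.88), *Ndufs3* (−0.76) and *Cox5a* (−0.74) had larger ones that did not pass.

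**Figure D4:**
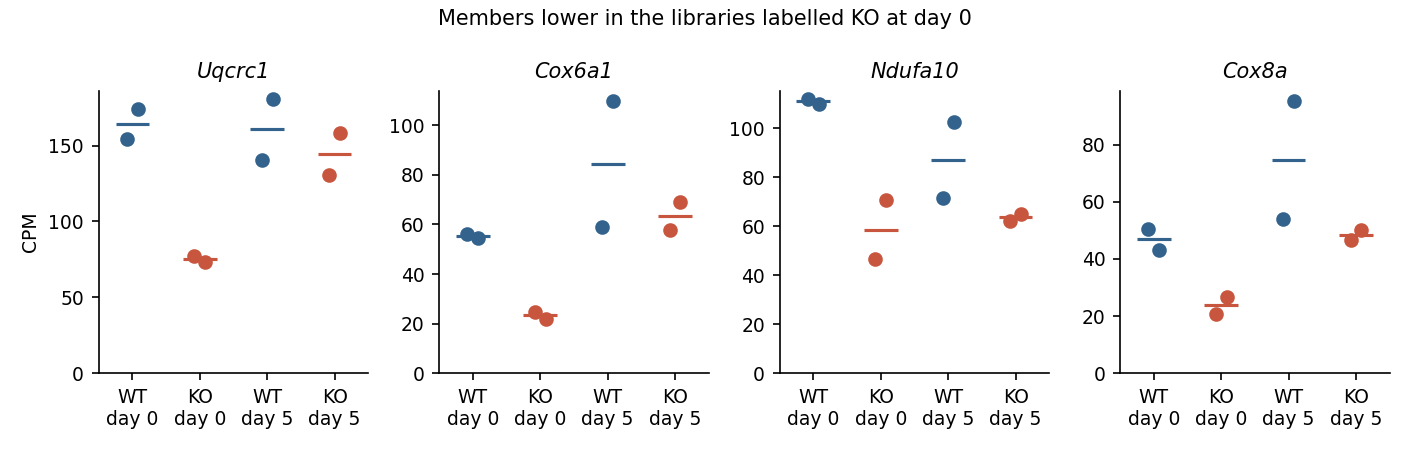
CPM of *Uqcrc1*, *Cox6a1*, *Ndufa10* and *Cox8a* in each library (points) with group means (lines), each axis starting at 0, WT in blue and libraries labelled KO in red. The KO libraries at day 0 lie below the WT libraries at day 0 in all 4 panels; at day 5 the genotypes overlap for *Uqcrc1* and *Cox6a1*, and the WT libraries of *Cox6a1* and *Cox8a* differ widely, at 59.1 and 110 and at 54.0 and 95.2 CPM.

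These calls rest on few libraries. Without WT day 0 replicate 2 no member was called, without WT day 0 replicate 1 only *Uqcrc1*, and the calls were *Ndufs3* and *Uqcrc1* without KO day 0 replicate 1 and *Ndufa10* and *Uqcrc1* without KO day 0 replicate 2. Removal of either KO day 5 library, which enters through the shared spread, left *Uqcrc1* and *Cox6a1*, and removal of either WT day 5 library gave 4 calls with *Cox8a* added. After correction for GC and exon length *Uqcrc1* alone was called, while *Cox6a1* stood at −1.04 (adjusted p = 0.152) and *Ndufa10* at −0.86 (adjusted p = 0.0729), and no member passed a test against a minimum change of 1.5-fold. Over 19 alternatives *Uqcrc1* kept its call in 17, *Cox6a1* in 12 and *Ndufa10* in 11, all with the same direction, and their log2 fold changes ranged from −1.21 to −1.04, −1.33 to −1.02 and −1.22 to −0.65. That of *Ndufa10* was −0.65 without KO day 0 replicate 1 and −1.22 without replicate 2. The GC content was 62.8% for *Cox6a1*, 57.8% for *Cox8a*, 53.9% for *Uqcrc1* and 51.4% for *Ndufa10*, where the median of tested members is 50.1% and of all tested genes 48.6%.

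The counts over all 87 tested members include these 3. Of the 87, 68 had a negative log2 fold change at day 0, with a median of −0.13 against −0.00 over all genes. The KO libraries lay below both WT libraries for 44 members and above them for 2, where 21.7% of all tested genes lay below. An unadjusted p under 0.05 with lower values was reached by 10 members, against 7.00% of all tested genes. Among the 84 members not called it was reached by 7 (8.33%), close to that share, and 65 of them had a negative log2 fold change (median −0.12). The median was −0.04 after correction for GC and exon length and −0.08 without KO day 0 replicate 1, so its size depended on that setting and on that library.

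**Figure D5:**
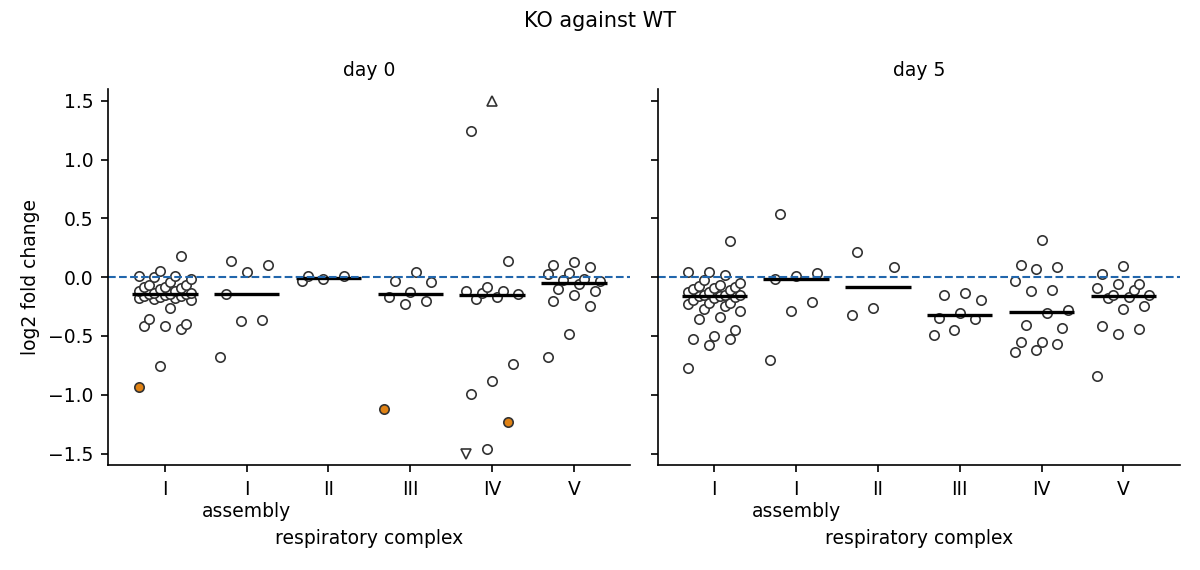
Log2 fold change of each tested member in libraries labelled KO against WT at day 0 (left) and day 5 (right), by complex; filled symbols pass an adjusted p of 0.05, black lines are medians of each complex, the dashed line is the median of all tested genes and triangles lie beyond the axis. *Uqcrc1*, *Cox6a1* and *Ndufa10* are the filled points at day 0, none is filled at day 5, and the median of each complex lies at or below the dashed line on both days.

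At day 5 the same comparison called 0 of 87 members in edgeR, against 1.63% of all tested genes (1.31% higher and 0.318% lower). At an unadjusted p under 0.05 21 members were lower and 1 higher, where 5.29% of all tested genes were lower at that level. DESeq2 called 3 members, all lower, namely *Ndufa1*, *Atp5k* and *Ndufa3*, and its share over all tested genes is not given here. *Ndufa1* was 97.0 and 91.6 CPM in WT and 64.9 and 61.5 CPM in KO (−0.58 ± 0.144, adjusted p = 0.0706 in edgeR). *Atp5k* was 82.5 and 73.3 CPM in WT and 46.0 and 41.1 CPM in KO (−0.84 ± 0.222, adjusted p = 0.0854). *Ndufa3*, a small accessory subunit of complex I, was 207 and 193 CPM in WT and 144 and 133 CPM in KO (−0.53 ± 0.144, adjusted p = 0.0982). In each of them both KO libraries lay below both WT libraries, as they did for 40 of the 87 members, against 20.7% of all tested genes. The median log2 fold change was −0.17 over members and 0.00 over all genes. It was −0.32 for complex III, −0.29 for complex IV, −0.16 for complexes I and V and −0.09 for complex II. Removal of WT day 5 replicate 1, KO day 0 replicate 1 or KO day 0 replicate 2 gave 1, 1 and 2 calls. Without WT day 5 replicate 1 the members' median was −0.09, and without WT day 5 replicate 2 it was −0.26.

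The difference in culture response between genotypes was tested as an interaction. No member passed in edgeR, against 0.159% of all tested genes, and 8 of 87 had an unadjusted p under 0.05, against 12.4% of all tested genes. Among the members DESeq2 called *Uqcrc1* alone, and its share over all tested genes is again not given here. *Uqcrc1* had the smallest p, with an interaction of 0.97 ± 0.221 log2 units (adjusted p = 0.122), since it rose from a lower start in KO. *Ndufa1* followed with −0.75 ± 0.202 (adjusted p = 0.175), and *Cox7c* with −0.69 ± 0.235 (adjusted p = 0.268). The culture comparisons in WT and KO share no library, while each shares its day 0 and day 5 libraries with the genotype comparisons.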

How the data were processed

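RNA of sorted splenic CD8+ T cells was made into libraries with an NEBNext Ultra kit and read at 50 bases on a HiSeq2500, per the labels. The submitters' processing notes name HISAT2 2.1.0, HTSeq 0.11.1 and mm10 (GRCm38); the annotation and strand setting are not given in the sources used here. The authors deposited 1 table of raw counts by gene symbol per library, neither normalized nor pooled. Of all records 21.2 to 24.5% were assigned to a gene, 27.5 to 33.7% lay outside genes and 31.8 to 37.4% had more than 1 alignment and were set aside; these summary lines were kept out of library sizes. Overlapping genes cannot be told apart where the counting is unstranded.

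Counts were filtered with filterByExpr (minimum count 10), scaled by TMM and tested in edgeR 4.0.16 (R 4.3.3) with the quasi-likelihood F-test over all 8 libraries, with group means and their contrasts. Benjamini-Hochberg adjustment ran over 12597 genes and calls used an adjusted p under 0.05. The common biological coefficient of variation was 14.9%. Standard errors are the log2 fold change divided by the root of F. The procedure was checked on simulated counts. The 92 members were matched to GENCODE M21 (GRCm38) for length, GC content and shared 50-base stretches, the principal transcript being the APPRIS principal one. Promoter windows were taken from RefSeq.

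Members, pathway lists and tests were chosen with earlier results of these data known. Genes named were a list of core, catalytic or cofactor-bearing subunits (with *Uqcrb*, *Uqcrq*, *Cox6c*, *Cox7c*, *Atp5e* and *Atp5o*), paralogue families (*Ndufa4* and *Ndufa4l2* included), up to 6 called members with the largest change in each direction at 10 CPM or more, and, where none was called, the 3 with the smallest p. Genes outside that rule (*Uqcrh*, *Ndufab1*, *Atp5l*, *Ndufaf2*, *Ndufaf3*, *Ndufaf7*, *Uqcr10*, *Uqcr11*, *Uqcc2*, *Lyrm7*, *Fh1*, *Ogdh*, *mt-Cytb*, *mt-Co1*, *mt-Co2*, *mt-Co3*, *mt-Atp6*, *mt-Atp8*, *mt-Nd3*, *mt-Nd4l*, *Cycs*, *Atpif1*, *Ppargc1b*, *Polrmt*, *Nrf1*) were chosen after their values were seen. A member named by that rule is not reported here by itself. Alternatives were other scalings, filters and tools, a replicate block, a correction (loess offset) for GC and exon length, a minimum change and leaving out each library.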

Additional observations from a re-analysis of the deposited data

How the results depend on the processing

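No call of a member changed sign under any alternative run; other listed genes were not rerun. In WT 57 members were called with the settings reported and 45 to 63 when single libraries were left out; in KO 59 and 44 to 62. A minimum change of 1.5-fold left 20 in WT, 20 in KO and 0 for KO against WT at day 0. The members' culture counts given here include oxidase isoforms whose day 5 excess was fixed by the filter. All 4 of these were among the 20 in WT and the 20 in KO. The 3 calls at day 0 became 5 without a filter on low counts, 1 after correction for GC and exon length, and 0 to 4 when single libraries were left out. At day 5 the 0 calls became 1 without the filter, 1 in a fit of the 4 libraries concerned, 3 in DESeq2 and 0 to 2 when single libraries were left out. For the interaction the 0 calls became 1 without the filter and 1 in DESeq2, and remained 0 when single libraries were left out. The cause of these changes was not tested. Across all tested genes, scaling by library totals alone turned the culture calls from 3112 higher and 2969 lower to 2668 and 3560 in WT, and from 3296 and 3029 to 2755 and 3936 in KO. With a replicate block 3, 0, 57, 58 and 0 members were called in the order day 0, day 5, WT culture, KO culture and interaction, and it moved no count by over 1.5 times. The replicate numbers were not shown to pair the libraries: correlations of replicate deviations over genes were 0.00 between WT and KO at day 0, −0.02 at day 5, 0.12 between days in WT and 0.23 between days in KO. With the block and that correction together the counts were 2, 0, 51, 49 and 0. With 2 libraries per group the spread limits what single genes can show, most of all for members at a few CPM.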

Other observations

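The members with lower values at day 0 in libraries labelled KO also stood apart between the WT libraries of day 5, which that comparison does not use for its means. The group was chosen after its values were seen and holds the 10 members with an unadjusted p under 0.05, namely *Atp5b*, *Atp5d*, *Cox6a1*, *Cox8a*, *Ndufa10*, *Ndufa6*, *Ndufaf1*, *Ndufaf4*, *Ndufs3* and *Uqcrc1*. In 8 of these 10, WT day 5 replicate 2 was above replicate 1, with a median ratio of 1.31. Among the other 73 members that reached the filter at day 0, replicate 2 was above replicate 1 in 11, with a median ratio of 0.866. In KO at day 5 replicate 2 was above replicate 1 in 7 of the 10 and 25 of the 73, in KO at day 0 in 6 and 54, and in WT at day 0 in 4 and 17. Median GC contents of both sets were 51.2% and 49.4%. The part of library quality in this pattern was not tested.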
